A study of Mus musculus with 9 samples.

Results

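Bone morphogenetic protein (BMP) signalling and the Id genes were followed through 10 genes of neural stem cells with and without Smchd1: the ligands Bmp2, Bmp4 and Bmp7, the receptors Bmpr1a and Bmpr1b, the inhibitory Smad6, and Id1, Id2, Id3 and Id4. They were taken by symbol from the deposited table of 25965 genes, which held all 10, and 8 of them were among the 14044 genes that passed a filter on low values (at or above 0 on the log2 scale in 3 or more libraries). Bmp4 and Smad6 did not pass it. The libraries came from C57BL/6 neural stem cell lines made from Smchd1 fl/fl embryos at E14.5, in which loxP sites flank part of Smchd1. One part of each line was transduced with the retrovirus MSCV-Cre-puro, selected with puromycin from 24 h later and harvested at day 7 (del/del). The other part stayed untransduced (fl/fl), so virus and puromycin cannot be told apart from the loss of Smchd1. Female lines 1 to 3 each gave a del/del and a fl/fl library (3 of each), male line 5 gave 1 of each, and male line 7 gave a fl/fl library only. The series' design text calls all the lines female and the controls del/fl, and the sample labels were followed here.

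BMP ligands are secreted proteins of the TGF-beta superfamily. They bind type I receptors such as BMPR1A and BMPR1B together with a type II receptor, and the type I receptor phosphorylates SMAD1, SMAD5 and SMAD9, which enter the nucleus with SMAD4. Id genes are classical direct targets of this route. Their products are helix-loop-helix proteins without a DNA-binding basic region, which bind E proteins and so keep proneural factors from DNA. In neural stem cells BMP signalling is known for holding back neuronal and oligodendrocyte fates and for favouring quiescence and astrocyte formation. SMAD6 is an inhibitory Smad that BMP signalling itself induces.

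Levels are given as log2 RPM, the log2 of reads per 1000000 reads, as the authors deposited them. The rows held 32873470 to 44913917 reads per library except in female fl/fl 2, with 12853089. That library also had the highest share of its reads in listed rows (53.3%, against 34.8% to 44.4% in the others) and the highest median level of the genes kept (4.46, against 4.10 to 4.38). Smchd1, the targeted gene, was at 5.04 to 5.36 in the del/del libraries and at 6.16 to 6.81 in the fl/fl libraries. Between the groups it differed by -1.19 (log2, SE 0.148, adjusted p = 0.00751 by limma). Neural stem cell markers were all above the filter (12 of 12), and of the astrocyte markers 11 of 12 were. Among astrocyte markers 3 of 11 rose (Gfap, Aqp4 and Slc1a2) and 0 fell, beside 1.45% and 0.0997% of all genes tested. Their summed level was 433 to 548 RPM in del/del libraries, 618 RPM in female fl/fl 2 and 357 to 416 RPM in the other fl/fl libraries. Nothing in the labels says that the lines came from separate litters or that either portion of a line was cultured more than once, so p-values measure the spread between these libraries.

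None of the 8 genes passed the test between del/del and fl/fl over both sexes (limma with sex as a covariate, 4 against 5 libraries). Over all 14044 genes tested 1.45% rose and 0.0997% fell, or 1.55% in either direction. The smallest adjusted p among the 8 was 0.610, and 0 of them had an unadjusted p under 0.05. Their median log2 fold change was -0.06, beside -0.00 for all genes tested, with 3 of the 8 above 0. Without female fl/fl 2, which stands apart below, 0 of 8 passed as well (1.52% of all genes rose and 0.107% fell). In no case did the del/del and fl/fl values stand apart without overlap, as they did for 6.52% of all genes tested. The largest differences were those of Id4 and Bmp2, both higher in del/del by about the size of their spread, while Id1, Id2 and Id3 had 1 control library far above the rest.

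**Figure D1:**
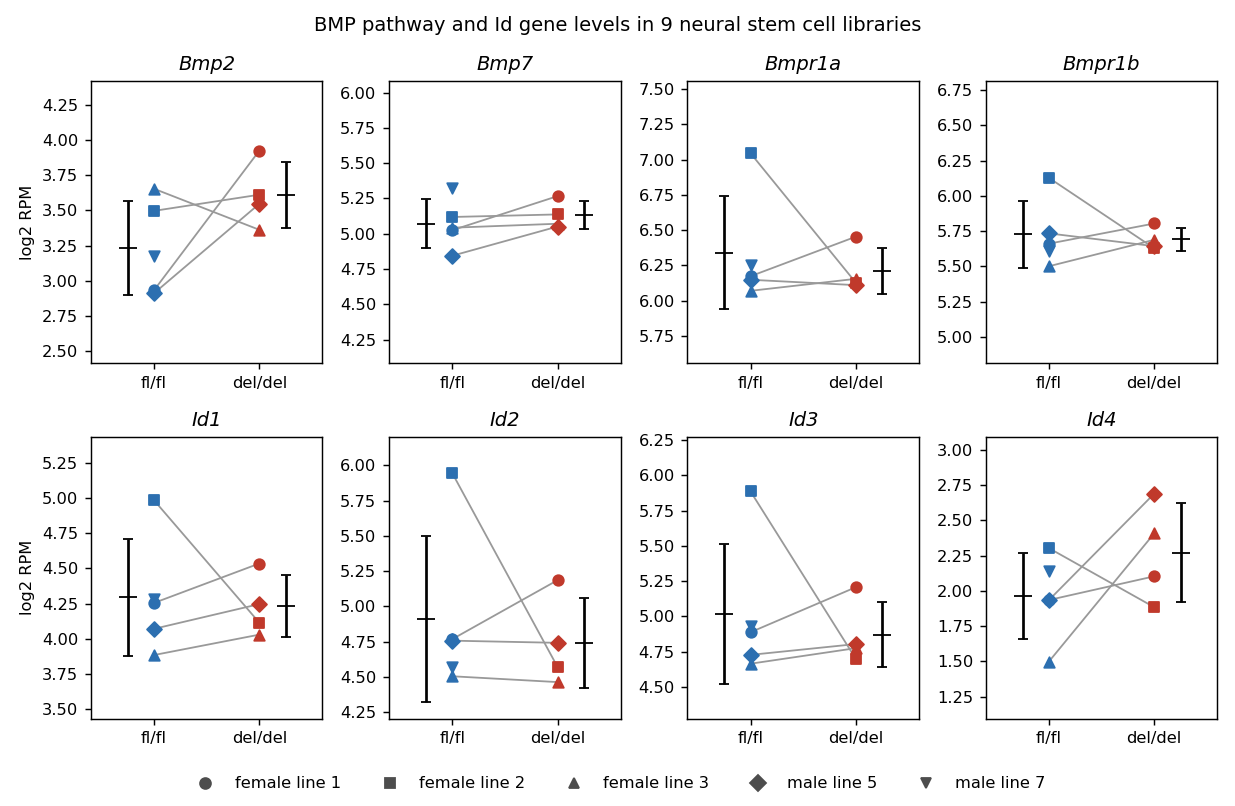
Level of each gene (log2 RPM, each panel spanning 2 log2 units) in fl/fl (blue) and del/del (red) libraries, with marker shapes for the line, grey lines joining both libraries of a line, and black bars for the mean ± SD of 5 fl/fl and 4 del/del libraries. Female fl/fl 2 (blue square) lies highest in the panels of Bmpr1a, Bmpr1b, Id1, Id2 and Id3, at 7.05, 6.13, 4.98, 5.94 and 5.88.

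Levels were compared between genes only per length, as RPM per kb of GENCODE exon within the row. Id3 (17.9 RPM per kb), Id2 (17.3) and Id1 (17.0) were the highest on average, and these 3 did not differ beyond their spread: Id1 was below Id3 in 7 of 9 libraries and Id2 below Id1 in 5 of 9. Bmpr1a followed at 12.5 RPM per kb, below Id2 in 9 of 9 libraries. Bmpr1b (8.85) was below Bmpr1a in 9 of 9, and Bmp7 (8.56) could not be separated from Bmpr1b, being lower in 5 of 9. Bmp2 (3.04) and Id4 (2.65) came next and were not separated from each other (Id4 lower in 4 of 9). Smad6 (0.0366) and Bmp4 (0.0214, with 0 reads entered as 0.9 of a read) were the lowest. The rows count reads over whole spans, since of 1201 pairs in which one row lies inside another (inner rows with at least 100 reads in all) the outer row held at least as many reads in every library in 1201. Intron reads can therefore lift long genes such as Bmpr1b (332 kb). Per kb of span Id1, Id3 and Id2 also came first, with 17.0, 14.2 and 13.1 RPM, against 0.159 for Bmpr1b.

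Of the ligands, Bmp7 varied less between libraries than Bmp2 (SD over 9 libraries 0.14 against 0.34, log2). Bmp7 (chromosome 2, 172868012 to 172940321, mm10) is expressed in the cortical hem, meninges and choroid plexus and acts on cortical progenitors. Its level was 5.27, 5.14 and 5.07 in female del/del 1, 2 and 3 and 5.05 in male del/del 5, against 5.03, 5.12 and 5.04 in female fl/fl 1, 2 and 3 and 4.84 and 5.32 in male fl/fl 5 and 7. The groups overlapped, with both the lowest and the highest value in male fl/fl libraries. Bmp7 differed by 0.06 on the log2 scale (SE 0.117, 95% interval -0.20 to 0.32, adjusted p = 0.997 by limma), so that a rise beyond 1.25-fold or a fall beyond 1.15-fold lay outside the interval. The del/del library was higher in 4 of 4 line pairs, by 0.24, 0.02, 0.03 and 0.21 in lines 1, 2, 3 and 5, and 4 pairs are too few for an exact sign-flip permutation test to pass 0.05. Of all genes tested 17.9% were higher in 4 of 4 pairs, and after centring each library on its median the difference in line 3 was -0.06.

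Bmp2 was higher in 3 of 4 line pairs, within the spread of the libraries. Bmp2 (chromosome 2, 133552159 to 133562885) encodes a ligand close to BMP4 that promotes astrocyte formation from neural progenitors. Its level was 3.92, 3.61, 3.36 and 3.55 in female del/del 1, 2 and 3 and male del/del 5. In female fl/fl 1, 2 and 3 it was 2.93, 3.50 and 3.65, and in male fl/fl 5 and 7 it was 2.91 and 3.18. The controls thus held both low libraries and, in line 3, one above 3 of the 4 del/del libraries. Bmp2 differed by 0.34 on the log2 scale (SE 0.173, 95% interval -0.04 to 0.73, adjusted p = 0.610 by limma). By pair the difference was 0.99 in line 1, 0.11 in line 2, -0.29 in line 3 and 0.63 in line 5 (exact sign-flip permutation test, two-sided, p = 0.375).

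Bmp4 was barely read, and its few reads lay mostly in del/del libraries. The Bmp4 row, with 38 reads in all, overlaps those of Gm15217 and Gm15222. The larger of these held 8 reads in all, and shared reads were not separated. Bmp4 (chromosome 14, 46383520 to 46390669) is the ligand most used to push cultured neural stem cells toward quiescence or astrocytes. It had 4, 20, 4 and 6 reads in female del/del 1, 2 and 3 and male del/del 5. It had 0, 0 and 2 reads in female fl/fl 1, 2 and 3 and 2 and 0 in male fl/fl 5 and 7. Every del/del library thus had more reads than every fl/fl library, and female del/del 2 held 20 of the 34 del/del reads. Of the genes that passed the filter, 5.53% had all del/del levels above all fl/fl levels. That share was not determined for genes below the filter, such as Bmp4. Pooled, the level was 0.0895 RPM in del/del (34 reads) and 0.00850 RPM in fl/fl (4 reads), a ratio of 10.5 (95% exact interval 3.76 to 40.9, for counting error only). Without female del/del 2, a setting chosen after seeing the data, it was 6.00 (1.88 to 25.02). The 0 reads in female fl/fl 2 allow up to 0.124 RPM, above 3 of the 4 del/del values. Over libraries the exact permutation test of the mean RPM gave p = 0.0159 (two-sided, the smallest that 4 against 5 allows). That test ignores the lines. Paired by line, Bmp4 was higher in del/del in 4 of 4 pairs, as were 17.9% of the genes that passed the filter. The exact sign-flip permutation test gave p = 0.13, which misses 0.05 and is the smallest that 4 pairs allow. In the limma fit without the filter on low values the log2 fold change was 2.15 (SE 0.669, adjusted p = 0.247), where 1.07% of 25965 genes rose and 0.0385% fell (1.11% in all). In bulk RNA, a few cells with Bmp4 and a trace in many cells cannot be told apart.

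Endothelium and fibroblasts can express Bmp4. Of 8 endothelial markers 3 passed the filter, and the summed level of all 8 was 5.53 to 9.94 RPM in del/del and 3.28 to 6.86 RPM in fl/fl libraries. Flt1 had 1.84 (SE 0.466, adjusted p = 0.106 by limma) and rose with the line as a block (2.00, adjusted p = 0.00995), Kdr had 0.61 and Esam -0.13. Pecam1, Cdh5, Tek, Cldn5 and Emcn did not pass the filter, with at most 8 reads per library for Cdh5 and Cldn5. Female del/del 2, with most of the Bmp4 reads, also stood apart in collagen genes of fibroblasts: Col1a1 was at 2.53 there and at -2.01 to 0.06 in the other 8 libraries, and Col1a2 at 2.67 against -1.24 to 0.58. The part of these cell types in the Bmp4 reads was not tested.

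Smad6 was as sparse, and its groups overlapped. Its row on chromosome 9 (63953076 to 64022059) had 2, 30, 7 and 13 reads in female del/del 1, 2 and 3 and male del/del 5. It had 24, 2 and 7 reads in female fl/fl 1, 2 and 3 and 13 and 8 reads in male fl/fl 5 and 7. The highest and the lowest level (0.285 and 0.0270 RPM) were both in del/del libraries. Pooled over libraries the level was 0.137 RPM in del/del and 0.115 RPM in fl/fl, a ratio of 1.19 (95% exact interval 0.799 to 1.78, for counting error only; exact permutation test of the mean RPM over libraries, two-sided, p = 0.714). Without female del/del 2 the ratio turned to 0.698 (0.405 to 1.17). The plot of reads for Bmp4 and Smad6 shows how few reads both rest on.

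**Figure D2:**
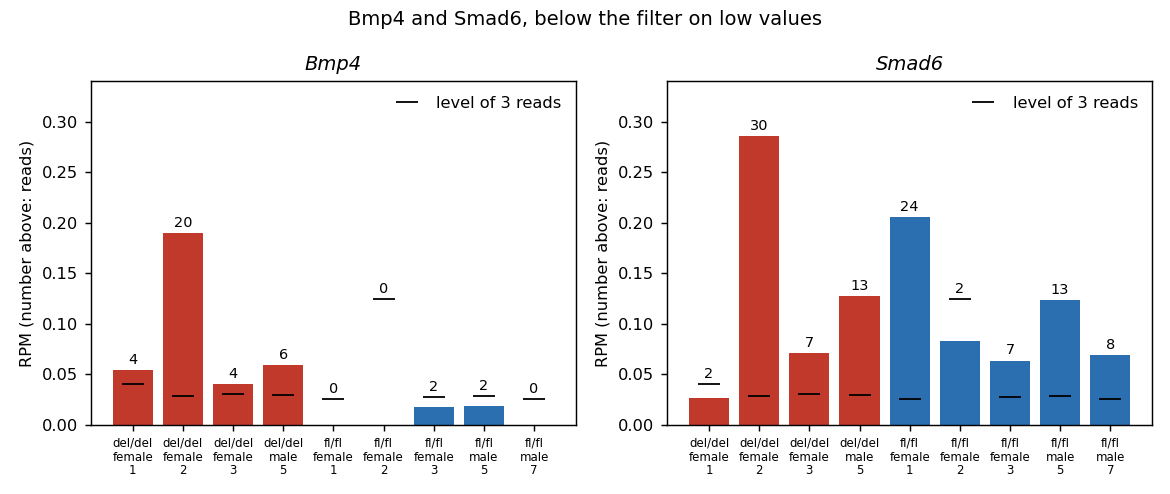
RPM of Bmp4 and Smad6 in each del/del (red) and fl/fl (blue) library, with the number of reads above each bar and a black dash at the level that 3 reads would give. Bmp4 had 4 to 20 reads in del/del and 0 to 2 in fl/fl libraries, while the Smad6 bars of the 2 groups overlap.

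Neither type I receptor passed the test, and their intervals lay within -0.60 to 0.29. BMPR1A is the more broadly expressed of the pair in neural progenitors, and BMPR1B appears later and is linked to differentiation. The level of Bmpr1a (chromosome 14, 34410734 to 34503341) was 6.45, 6.13, 6.16 and 6.11 in female del/del 1, 2 and 3 and male del/del 5. In the controls it was 6.17, 7.05 and 6.07 in female fl/fl 1, 2 and 3 and 6.15 and 6.26 in male fl/fl 5 and 7. Apart from female fl/fl 2 at the top and female del/del 1 next to it, the other 7 libraries lay within 6.07 to 6.26. Bmpr1a differed by -0.16 on the log2 scale (SE 0.200, 95% interval -0.60 to 0.29, adjusted p = 0.997 by limma), and by 0.05 (SE 0.102, adjusted p = 0.871) without female fl/fl 2.

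Bmpr1b (chromosome 3, 141837136 to 142169425) had 5.80, 5.63, 5.69 and 5.64 in female del/del 1, 2 and 3 and male del/del 5. It had 5.66, 6.13 and 5.50 in female fl/fl 1, 2 and 3 and 5.73 and 5.61 in male fl/fl 5 and 7. The del/del libraries were close together (SD 0.0796) and lay inside the range of the controls. Bmpr1b differed by -0.05 (log2, SE 0.138, 95% interval -0.36 to 0.26, adjusted p = 0.997 by limma). Without female fl/fl 2 it was 0.07 (SE 0.0889). By pair both receptors were higher in del/del in lines 1 and 3 and lower in lines 2 and 5, with -0.92 for Bmpr1a and -0.50 for Bmpr1b in line 2.

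Id1, Id2 and Id3 took their highest level in 1 control library, female fl/fl 2. Among the other libraries the groups overlapped, with female del/del 1 highest in each gene. Id1 (chromosome 2, 152736251 to 152737410) had 4.53, 4.12, 4.03 and 4.25 in female del/del 1, 2 and 3 and male del/del 5. It had 4.25, 4.98 and 3.88 in female fl/fl 1, 2 and 3 and 4.07 and 4.28 in male fl/fl 5 and 7. Id2 (chromosome 12, 25093801 to 25096092), an Id gene widely expressed in the developing brain, had 5.19, 4.57, 4.46 and 4.74 in the del/del libraries in the same order. In fl/fl it had 4.77, 5.94 and 4.50 in females 1, 2 and 3, and 4.76 and 4.57 in males 5 and 7. The groups overlapped in both genes, and the first and second place went to female fl/fl 2 and female del/del 1.

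Id3 (chromosome 4, 136143497 to 136145755), which is often co-expressed with Id1 in neural stem cells, had 5.21, 4.70, 4.77 and 4.80 in female del/del 1, 2 and 3 and male del/del 5. It had 4.89, 5.88 and 4.66 in female fl/fl 1, 2 and 3 and 4.73 and 4.93 in male fl/fl 5 and 7. The order of the first 2 libraries was the same as for Id1 and Id2. The log2 fold changes were -0.08 for Id1 (SE 0.210, 95% interval -0.55 to 0.39), -0.21 for Id2 (SE 0.284, -0.84 to 0.43) and -0.18 for Id3 (SE 0.236, -0.71 to 0.34), each with a limma adjusted p of 0.997. Without female fl/fl 2 they were 0.13, 0.09 and 0.07, with adjusted p from 0.742 to 0.856, and with median centring as well 0.05, 0.02 and -0.01 (0 of 8 passed, 1.59% of all genes rose, 2.09% passed in either direction). Line 2 alone gave large differences, -0.87 for Id1, -1.38 for Id2 and -1.19 for Id3. In lines 1, 3 and 5 the differences were 0.28, 0.14 and 0.18 for Id1, 0.42, -0.04 and -0.02 for Id2, and 0.32, 0.11 and 0.08 for Id3.

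In female fl/fl 2 the excess of these genes was larger than the shift of the library as a whole. The median of all genes kept was 0.25 above the median of the other 8 libraries (lower and upper quartile -0.11 and 0.59). Id2 was 1.29 above, Id3 1.10, Bmpr1a 0.89 and Id1 0.80. After centring each library on its median, Id2 was still 1.03 above, Id3 0.81, Bmpr1a 0.63, Id1 0.53 and Bmpr1b 0.24, while Id4 was 0.06 above and Bmp2 and Bmp7 were -0.20 and -0.20 from the others. In this centred deviation Id2 stood at percentile 98.0 of all genes kept, Id3 at 94.7, Bmpr1a at 89.8 and Id1 at 86.1. The excess therefore did not extend to every gene of the set. In the same library the summed level of 12 proliferation genes was 975 RPM, against 535 to 712 RPM over the del/del and the other fl/fl libraries, and that of 12 neural stem cell markers was 1019 RPM, against 503 to 728 RPM. Other sums were also highest there: oligodendrocyte lineage markers (411 RPM, the others at most 305), astrocyte markers (618, at most 548), Smads and intracellular regulators (860, at most 699) and E proteins and partners (961, at most 640). The summed neuron markers were not high there (59.1 RPM, against 58.0 to 118 RPM over all libraries). The part of depth, of the share of reads in rows and of these markers was not tested.

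**Figure D3:**
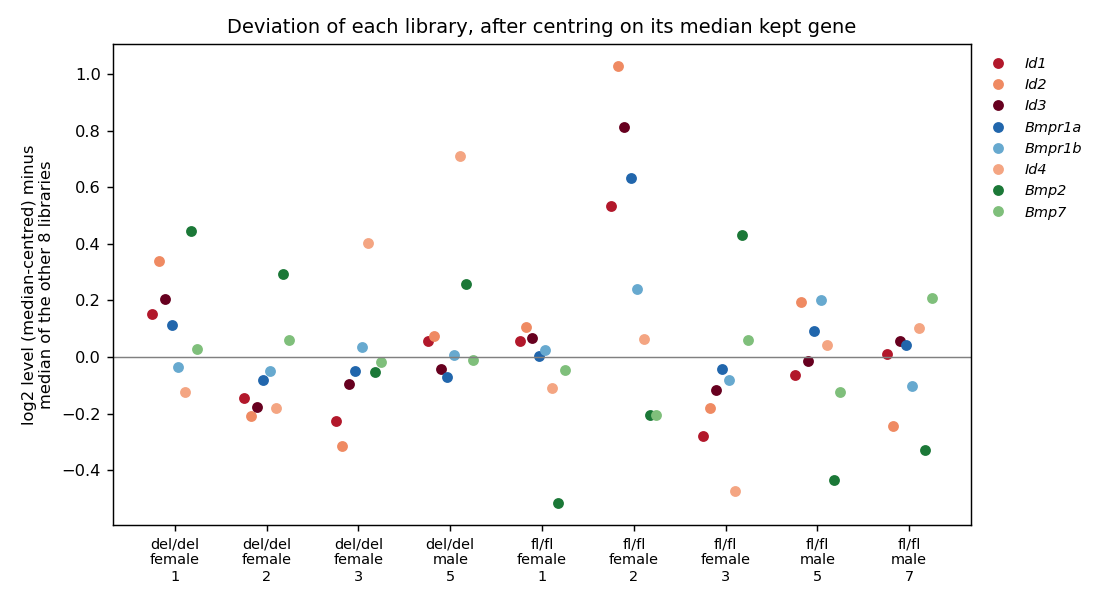
Level of each gene in each library after centring the library on its median gene, as the difference from the median of the other 8 libraries (log2). Female fl/fl 2 shows Id2, Id3, Bmpr1a and Id1 0.53 to 1.03 above the others, while Bmp2 and Bmp7 lie at -0.20 there.

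Id4 was the lowest of the Id genes and the one with the largest difference. Id4 (chromosome 13, row 48261427 to 48264036) is tied to stem cell quiescence in the adult brain. It had 2.10, 1.88, 2.41 and 2.69 in female del/del 1, 2 and 3 and male del/del 5. It had 1.93, 2.30 and 1.50 in female fl/fl 1, 2 and 3 and 1.93 and 2.14 in male fl/fl 5 and 7. The highest 2 values were del/del and the lowest was fl/fl, but female del/del 2 was below 4 of the 5 controls. Id4 differed by 0.35 on the log2 scale (SE 0.192, 95% interval -0.08 to 0.78, adjusted p = 0.683 by limma). By pair Id4 differed by 0.17, -0.42, 0.91 and 0.76 in lines 1, 2, 3 and 5 (exact sign-flip permutation test, two-sided, p = 0.375). Without female fl/fl 2 the log2 fold change was 0.50 (SE 0.164, adjusted p = 0.219). With that library left out and the line as a block, a setting chosen after seeing the data, Id4 passed (0.61, adjusted p = 0.0207; range over 22 alternatives 0.0207 to 1.00). In that setting 11.9% of all genes rose and 0.826% fell (12.7% in all), and line 2 no longer takes part.

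**Figure D4:**
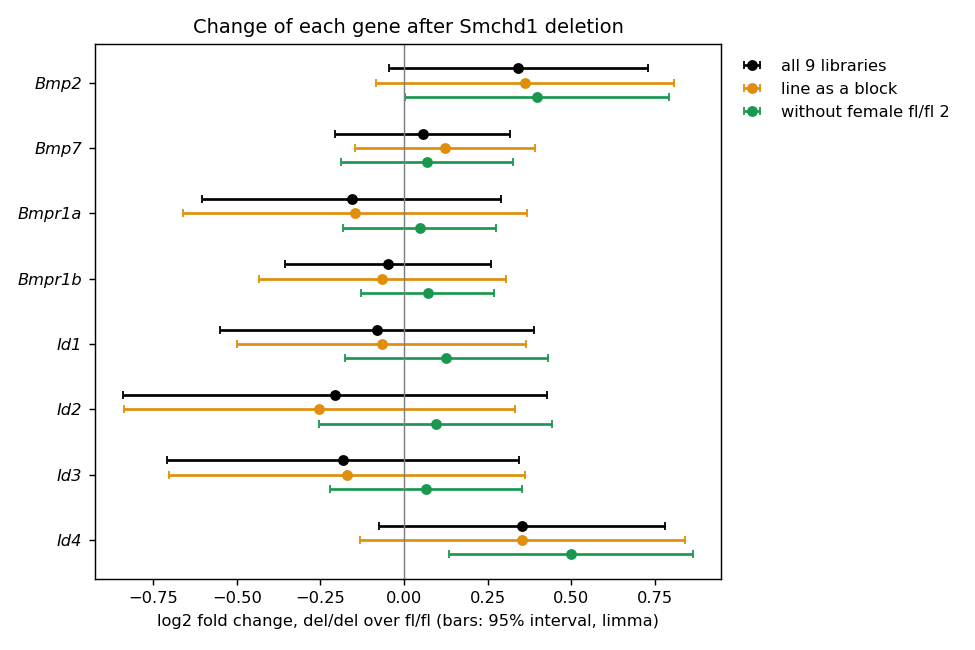
Log2 fold change of each gene, del/del over fl/fl, with its 95% interval from limma for all 9 libraries (black), with the line as a block (orange) and without female fl/fl 2 (green). The estimates of Bmpr1a, Bmpr1b, Id1, Id2 and Id3 lie below 0 with all libraries and between 0.05 and 0.13 without female fl/fl 2.

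No gene of the set passed within a sex or between the sexes. In females the log2 fold changes were 0.27 for Bmp2, 0.10 for Bmp7, -0.18 for Bmpr1a, -0.06 for Bmpr1b, -0.15 for Id1, -0.33 for Id2, -0.25 for Id3 and 0.22 for Id4, and 0 of 8 passed (0.0142% of all genes did). Smchd1, the deleted gene, did not pass in females either (-1.24, adjusted p = 0.0921 by limma). A count of 0 in that fit therefore says little about smaller changes. In males, with 1 del/del library assumed to vary like the other groups, Id4 had 0.65 and Bmp2 0.50, and 0 of 8 passed (0% of all genes). The difference between the sexes did not pass for any of the 8 (limma, smallest adjusted p = 1.00, 0 with an unadjusted p under 0.05), and 0% of all genes passed it. The 6 libraries whose description begins with RNA- gave 0.15 for Bmp2, 0.42 for Id4, -0.18 for Id1, -0.48 for Id2 and -0.33 for Id3. There 0 of 8 passed, but Smchd1 did not pass in these 6 libraries either (-1.25, adjusted p = 0.0553 by limma), so that count says little. The libraries without that prefix hold 1 del/del library, so for them only the line 1 pair given above can be stated.

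Promoter sequence is shown for Id2, Id4 and Smad6, an inhibitor and 2 Id genes whose start region held a motif that Smads are known to bind: the GC-rich GGCGCC bound by SMAD1 and SMAD5, or the palindrome GTCTAGAC. Sequences are from RefSeq (GRCm38.p6, the build mm10), and of the 10 genes 7 had an entry: Bmp4, Bmpr1a, Bmpr1b, Smad6, Id2, Id3 and Id4. The 250 bases before the start were searched on both strands for these and for 2 further motifs: the Smad box, spelled CAGAC, and the CRE, spelled TGACGTCA, which no promoter of the set held. Capitals mark the motif, and only bases outside GENCODE exons are printed for Id2 (chr12:25096254-25096342, minus strand) and Id4 (chr13:48260866-48261115, plus strand).
Id2: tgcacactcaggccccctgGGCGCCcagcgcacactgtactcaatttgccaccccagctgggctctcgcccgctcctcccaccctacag
Id4: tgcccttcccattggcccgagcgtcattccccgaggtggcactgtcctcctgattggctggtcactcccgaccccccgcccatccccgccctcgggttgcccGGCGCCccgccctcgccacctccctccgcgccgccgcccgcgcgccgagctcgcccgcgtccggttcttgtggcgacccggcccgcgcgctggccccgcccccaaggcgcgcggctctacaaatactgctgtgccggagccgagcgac
Smad6: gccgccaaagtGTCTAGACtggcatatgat

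GGCGCC was found before the RefSeq start of Id2, Id4 and Bmpr1a, and 9.59% of 32851 promoters hold it in these 250 bases. The Smad box was before the RefSeq start of Id3 and in 2 of 3 Bmpr1b promoters, and 42.2% of promoters hold it. The windows of Bmpr1a, Id3 and Bmpr1b lie inside the rows of these genes, downstream of the row's start. Of the 250 bases, 161 in Id2, 141 in Bmpr1a and 250 in Id3 lie in GENCODE exons. GTCTAGAC spans the start of Smad6 from base -4 to base 4 (30 bases printed, chr9:64022045-64022074, minus strand). It was in none of the 250-base windows of these genes, and 0.213% of promoters hold it in the wider window of 300 bases that runs past the start. These matches describe letters. No tested gene that holds one passed the test over both sexes, and Smad6, below the filter, was not among the genes tested.

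The genes with the most similar course over the 9 libraries were found for the highest ligand, receptor and Id gene by Pearson's r. The libraries come from 5 lines, so r is given as a description. For Id3 they were Ddah2 (r = 0.998), 1810027O10Rik (0.998) and Snrpa1 (0.998), and for Bmpr1a Top2a (0.999), a topoisomerase of dividing cells, Cyb5b (0.998) and Marcks (0.998). For Bmp7 they were Rnd2 (0.990), Gm20671 (0.977) and Lrfn4 (0.976). Within the set the r with Id3 was 0.992 for Bmpr1a, 0.969 for Id1, 0.962 for Id2 and 0.928 for Bmpr1b, and 0.320 for Bmp7, 0.304 for Id4 and 0.215 for Bmp2. Without female fl/fl 2 it was 0.960, 0.926, 0.811 and 0.646 for the first 4, and 0.632, 0.251 and 0.285 for the last 3, so that Bmp7 and Bmpr1b were then level.

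The wider pathway was taken as 6 lists with 74 genes, all found in the table, of which 47 passed the filter. None of the 47 passed the test over both sexes by limma, beside 1.55% of all genes tested. Their median log2 fold change was 0.00 with 24 above 0, and 4 had an unadjusted p under 0.05. With the line as a block, where 3.77% of all genes rose and 0.228% fell (3.99% in all), 0 of the 8 genes above passed and 2 of the 47 rose: the antagonists Grem1 and Fst.

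Of the antagonists and extracellular modulators 12 of 14 were above 0, with a median of 0.15, beside 6869 of 14044 genes tested and a median of -0.00. That list also holds Bambi, a membrane protein, and the protease gene Bmp1. Grem1, which binds BMP2, BMP4 and BMP7 and keeps them from their receptors, had 0.30, 1.12, 1.28 and 1.03 in female del/del 1, 2 and 3 and male del/del 5. It had -0.54, -0.89 and 0.04 in female fl/fl 1, 2 and 3 and -2.13 and 0.32 in male fl/fl 5 and 7. The groups touched at the lowest del/del library, female del/del 1, which was below male fl/fl 7. Grem1 differed by 1.54 on the log2 scale (SE 0.490, adjusted p = 0.229 by limma), and by 1.81 with the line as a block (adjusted p = 0.0298; range over 22 alternatives 0.00580 to 0.799). The del/del library was higher in 4 of 4 lines, by 0.84, 2.01, 1.24 and 3.16 in lines 1, 2, 3 and 5, as for 17.9% of all genes tested. The row held 13 to 241 reads per library.

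Fst encodes follistatin, which binds activins and some BMPs. It had 3.55, 3.24, 3.54 and 3.13 in female del/del 1, 2 and 3 and male del/del 5. It had 2.87, 2.92 and 3.09 in female fl/fl 1, 2 and 3 and 2.52 and 2.95 in male fl/fl 5 and 7. All del/del values lay above all fl/fl values, as in 5.53% of all genes tested. Fst differed by 0.45 on the log2 scale (SE 0.123, adjusted p = 0.132 by limma), and by 0.51 with the line as a block (adjusted p = 0.0400; range over 22 alternatives 0.00285 to 0.463). With the block and median centring neither gene passed (adjusted p = 0.0725 for Grem1 and 0.0665 for Fst). The summed level of fibroblast and meningeal markers, cell types that can express Grem1, was 151 to 189 RPM in del/del and 94.3 to 142 RPM in fl/fl libraries. These sums did not overlap, and of single genes tested 5.53% had all del/del levels above all fl/fl levels. The 4 markers that passed the filter were above 0, with 1.39 for Col6a1 (adjusted p = 0.105 by limma), 0.58 for Fn1 (adjusted p = 0.126), 0.28 for Acta2 and 0.18 for Tagln. Col1a1, Col1a2, Col3a1, Dcn and Pdgfrb did not pass the filter and Lum had no read. Outside female del/del 2, the collagen genes overlapped between the groups. Col1a1 was at -0.63 to -0.60 in del/del and -2.01 to 0.06 in fl/fl, and Col1a2 at -0.38 to -0.14 and -1.24 to 0.58. Col3a1 was at -2.93 to -2.04 in del/del and -4.53 to -2.54 in fl/fl. The part of these cell types in the Grem1 values was not tested. Vwc2, a secreted BMP-binding protein of the nervous system, had -0.32 (SE 0.122, limma adjusted p = 0.357).

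**Figure D5:**
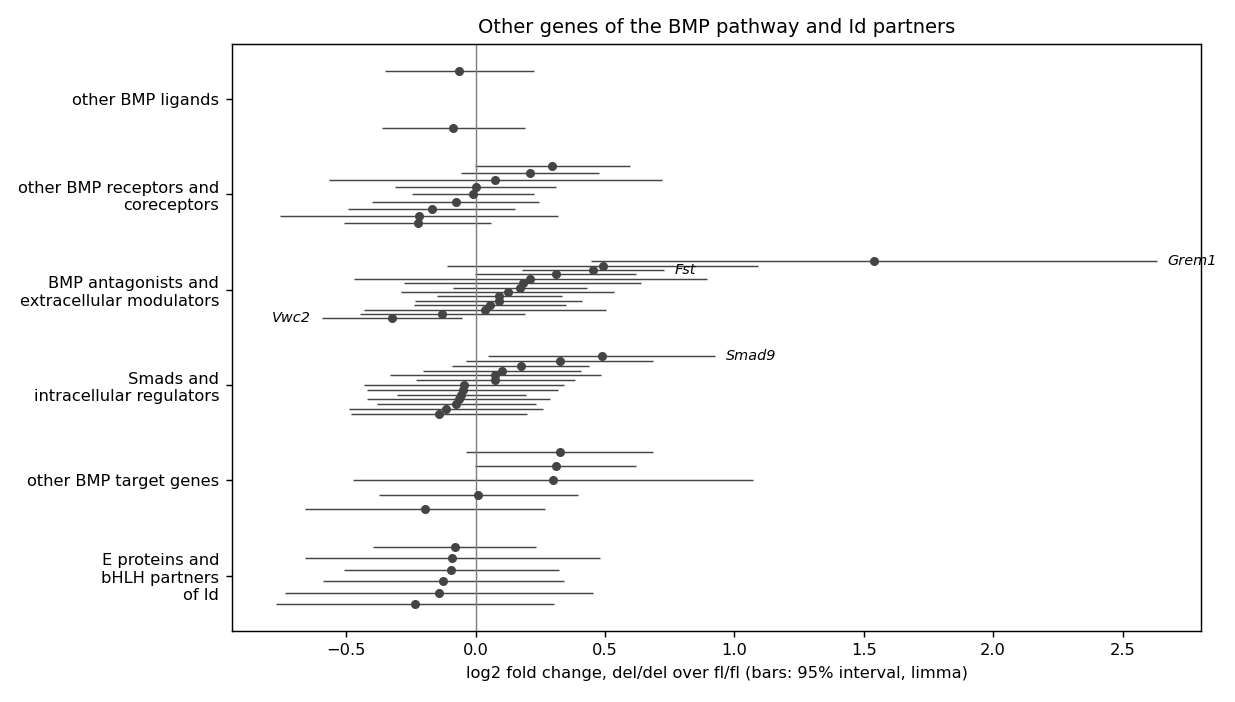
Log2 fold change, del/del over fl/fl over both sexes, of the genes of the 6 pathway lists that passed the filter, with 95% intervals from limma; Smad7 and Bambi are in 2 lists each. Grem1 lies farthest from 0 at 1.54, and none of the genes passed after adjustment over all genes.

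Of 13 Smads and intracellular regulators 6 were above 0, with a median of -0.04. Smad9, a receptor-activated Smad whose gene BMP signalling can induce, had 0.49 (SE 0.197, limma adjusted p = 0.415). Smad7, the general inhibitory Smad, had 0.32 (SE 0.162, adjusted p = 0.599) and the ubiquitin ligase gene Smurf1 0.17 (SE 0.119, adjusted p = 0.856). The other receptor-activated genes Smad1 and Smad5 had 0.08 and -0.11 and the common partner Smad4 -0.07; these 3 were chosen for their role after their values were seen. Among 5 other target genes 4 were above 0, with a median of 0.30. Bambi, a decoy receptor that BMP signalling induces, had 0.31 (SE 0.139, adjusted p = 0.513), with 1.70 to 1.99 in del/del and 1.33 to 1.62 in fl/fl libraries. All its del/del values lay above all fl/fl values, as in 5.53% of all genes tested. Hes1 had -0.19 (adjusted p = 0.997).

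Of 9 other receptors and coreceptors 4 were above 0, with a median of -0.01. The coreceptor genes Rgma and Rgmb had 0.30 (SE 0.134, limma adjusted p = 0.518) and 0.21 (SE 0.120, adjusted p = 0.728), and the type II receptor gene Acvr2b had -0.22 (SE 0.127, adjusted p = 0.728). Of 13 other ligands 2 passed the filter, Gdf11 at -0.06 and Bmp8b at -0.09 (limma adjusted p = 0.997 for both); the row of Bmp8b overlaps those of Gm17244, Oxct2b and Ppie. Among the E proteins and proneural partners of Id proteins 0 of 6 were above 0 and 0 passed, with a median of -0.11. Olig2 had -0.23, Tcf4 -0.12 and Tcf3 -0.08 (adjusted p = 0.997 for each).

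Below the filter, Bmp6, a ligand, had 19, 28, 17 and 24 reads in female del/del 1, 2 and 3 and male del/del 5, and 8, 1, 6, 8 and 6 reads in female fl/fl 1, 2 and 3 and male fl/fl 5 and 7. In the fit without the filter Bmp6 differed by 2.03 on the log2 scale (SE 0.463, adjusted p = 0.0675 by limma). The target gene Msx1 had 22, 21, 34 and 36 reads in the del/del libraries and 16, 0, 16, 13 and 14 in the fl/fl libraries in the same order (log2 fold change 1.57, adjusted p = 0.291). For both genes all del/del values lay above all fl/fl values, as for 5.53% of all genes that passed the filter. The share among genes below the filter, like these, was not determined. Both were named after their values were seen, and of the 27 pathway genes below the filter 0 passed in that fit.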

How the data were processed

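RNA of 9 neural stem cell libraries was sequenced. The authors deposited one table of log2 RPM per gene and library, made on build mm10 with bcl2fastq, edgeR 3.8.2 and TopHat2 2.0.12 per the submitters' processing notes. How reads were counted, and on which strand, is not stated. The log2 values deposited by the authors correspond to whole reads (99.9961% or more per library, tolerance 0.05), with 0 reads entered as 0.9. Groups and lines came from the sample titles. Tests were two-sided moderated tests of the deposited values (limma 3.58.1, R 4.3.3, variance prior following the mean level), with Benjamini-Hochberg adjustment over all 14044 genes kept and a threshold of 0.05. The model over both sexes had sex as a covariate; sex-specific effects came from 4 group means. The fit was tested on simulated data. Alternatives were other scalings, filters and a pseudocount of 1 RPM, voom on recovered reads, the line as a block, and leaving out libraries.

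The growth protocol says that each line was split, so line numbers pair the libraries. Deviations from the group mean in the 3 female pairs correlated across genes with r of 0.868, 0.582 and 0.758 (genes are not independent replicates). Across lines r was 0.728 for female del/del 2 with fl/fl 3 and 0.494 for female del/del 3 with fl/fl 2. Between line 1 and the other female lines r was -0.841 to -0.572. These r thus set line 1 apart but do not tell lines 2 and 3 from each other. Both line 1 libraries lack the RNA- prefix that the libraries of female lines 2 and 3 carry. The line and the prefix therefore cannot be told apart in these r. The members, lists and tests were chosen with earlier results of these data known. Named besides the members are the pathway genes that passed, with or without the block, and otherwise the 3 with the smallest p per list. Exon lengths are from GENCODE vM21. The other marker lists gave: neural stem cells 0 of 12 called, oligodendrocyte lineage 0 of 8, neurons 2 of 8 (Nefl and Nefm, both up), endothelium 0 of 3, fibroblast and meninges 0 of 4, choroid plexus 0 of 1, microglia and leukocytes 0 of 3, proliferation 0 of 12, beside 1.55% of all genes. With the line as a block Gad1 (neurons, adjusted p = 0.0348) and Flt1 (endothelium, adjusted p = 0.00995) also rose, beside 3.77% of all genes.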

Additional observations from a re-analysis of the deposited data

Results flagged for a closer look

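In 4 of 16 groups of values tested (8 genes in 4 del/del and 5 fl/fl libraries) 1 library stood apart from the others of its genotype by the gap to its nearest neighbour relative to the range (Dixon's 95% limit), where chance gives about 1 in 20. In fl/fl it was female fl/fl 2 for Bmpr1a (7.05, the others 6.07 to 6.26), Id2 (5.94, the others 4.50 to 4.77) and Id3 (5.88, the others 4.66 to 4.93). In del/del it was female del/del 1 for Bmpr1a (6.45, the others 6.11 to 6.16). These are the libraries with the highest median levels of all genes kept, 4.46 and 4.38, and the part of that shift was not tested. The 3 genes flagged in female fl/fl 2 move together also without it (r with Id3 0.960 for Bmpr1a and 0.811 for Id2). The flags are thus not independent, and 1 in 20 does not measure how unusual their count is.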

How the results depend on the processing

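The count of 0 of 8 genes passing over both sexes held in 21 of 22 alternatives, and 1 (Id4, log2 fold change 0.61) passed with the replicate block and without female fl/fl 2. Counts in females, in males and for the difference of the sexes stayed at 0 in each setting that could be fitted. Without male del/del 5 the male effect and the difference could not be fitted. At an unadjusted p under 0.05 there were 0 of 8 as reported, 2 without female fl/fl 2, 1 with voom and 0 to 3 over all settings. Of the other pathway genes 0 passed, 2 of 47 did with the line as a replicate block (3.99% of all genes) and 8 of 47 with the block without female fl/fl 2 (12.7% of all genes). Bmp7, the 1 of the 8 genes above the filter with one sign in 4 of 4 pairs, lost this with median centring, leaving 0. The block changed no other call of these genes.

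Estimates ranged over the libraries left out from 0.22 to 0.45 for Bmp2, 0.00 to 0.12 for Bmp7, -0.27 to 0.0465 for Bmpr1a, -0.13 to 0.0708 for Bmpr1b, -0.23 to 0.13 for Id1, -0.37 to 0.0942 for Id2, -0.33 to 0.0657 for Id3 and 0.22 to 0.50 for Id4. Signs turned only without female fl/fl 2. With the replicate block and without it the values were 0.11 for Bmpr1a, 0.0800 for Bmpr1b, 0.20 for Id1, 0.12 for Id2 and 0.17 for Id3. With median centring without it they were 0.0490 for Id1, 0.0171 for Id2 and -0.00851 for Bmp7. Settings that combine the block or centring with its removal, and scaling to reads in listed rows, were chosen after seeing the data. The cause was not tested. Depth limits Bmp4 and Smad6, with 0 to 30 reads per library.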
